A study of Mus musculus with 6 samples.

Results

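The genes described are those of mouse enzymes that attach glutathione, glucuronic acid or sulfate to small molecules, or that open epoxides with water, in the testis after chronic ethanol intake. They were taken as the protein-coding genes whose symbols begin with Gst and a class letter and number, or with Mgst, Ugt, Sult or Ephx and a number. This rule found 71 of 45777 listed genes, namely 22 cytosolic glutathione transferases (Gst), 3 membrane-bound glutathione transferases (Mgst), 21 glycosyltransferases of the Ugt family, 21 sulfotransferases (Sult) and 4 epoxide hydrolases (Ephx). Total RNA was sequenced from testes of wild-type (WT) mice given an ethanol liquid diet for 16 weeks, with 3 libraries, and of WT mice given the control liquid diet for 16 weeks, with 3 libraries. All mice were first accustomed to liquid feeding on the control diet, per the labels' protocols. The sources used here give neither the strain, nor the age at sampling, nor whether each library came from its own animal. The p-values therefore describe the spread among these libraries alone, which may be technical.

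Conjugation makes reactive or fat-soluble molecules easier to export. Glutathione transferases join the tripeptide glutathione to electrophiles such as the aldehydes of lipid peroxidation, Ugt enzymes transfer a sugar from a nucleotide donor, and sulfotransferases move sulfate from the donor PAPS. Epoxide hydrolases act beside them on the epoxides that cytochrome P450 enzymes make. In the testis these enzymes also handle endogenous substrates, among them steroid hormones and the galactolipids of germ cells.

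Reads counted to genes ranged from 38935654 to 43399317 per ethanol library and from 43389811 to 47420249 per control library. Levels are given as CPM, read counts relative to library size after scaling, for comparisons between libraries, and as TPM, which also corrects for transcript length, for comparisons between genes. Of the 71 genes, 41 had enough counts to be tested, among 25073 genes tested in all. The other 30 are named at the end. In bulk tissue, fewer cells of a type and less RNA per cell cannot be told apart.

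No gene of these families passed an adjusted p of 0.05 between the diets in the quasi-likelihood test of edgeR (Benjamini-Hochberg adjustment over all genes), nor did any of the 25073 genes tested. The lowest adjusted p was 0.0515 over all genes and 0.127, for Ephx1, within the families. At an unadjusted p under 0.05 stood 14 of the 41 tested members (34.1%), against 13.3% of all genes tested, with 9 higher in ethanol testes, against a background of 7.45%, and 5 lower, against 5.89%. Where the mean reached 5 CPM, the shares were 11 of 25 members (44.0%) and 16.5% of all genes. DESeq2 called 1 member higher, Gstm6, and 3 lower, Ephx1, Ugt1a6a and Ugt1a6b, among 203 genes higher and 127 lower at an adjusted p of 0.05, and limma-voom called 0 members among 3 genes higher and 2 lower. Ugt1a2, of the largest log2 fold change among the 14, was given no adjusted p by DESeq2 and could not be called there.

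The CPM of the ethanol and control libraries did not overlap for 13 of the 41 members (31.7%), 9 higher and 4 lower in ethanol testes, against 18.8% of all genes tested, 9.76% higher and 9.01% lower. A log2 fold change above 0 was found for 25 of the 41 members, against 51.5% of all genes tested. The median log2 fold change, ethanol over control throughout, was 0.09 over the tested members and 0.01 over all genes tested. Its median size without regard to sign was 0.19 over the members and 0.14 over all genes. Members share reads and neighbouring loci, so they are not independent of one another, and these shares are descriptions. The 5 lower members at an unadjusted p under 0.05 became 3 without control library 1 or without control library 2. Of all genes tested, 9.27% and 14.3% then stood at that level, in either direction. The 4 lower members whose diets did not overlap became 7 without ethanol library 1 or without control library 1. Non-overlap is easier for any gene with a library left out, and its share over all genes was not computed for these runs.

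**Figure D1:**
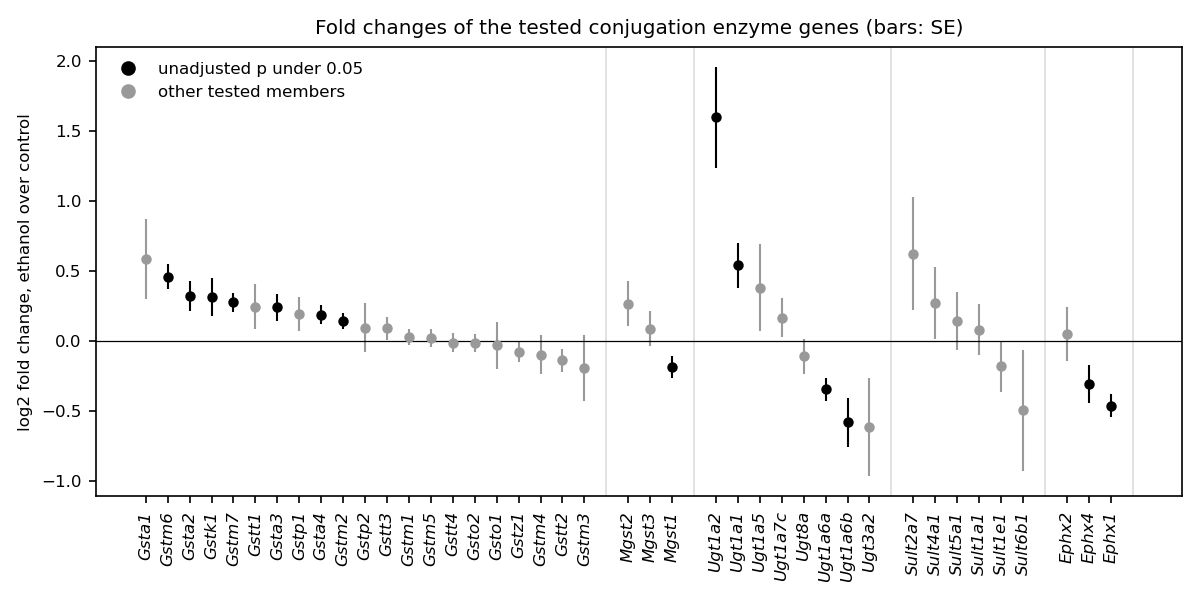
Log2 fold change, ethanol over control, with its standard error (bars) for the 41 tested conjugation enzyme genes, grouped by family, from edgeR. Black points mark an unadjusted p under 0.05 and grey points the others, and the black ones run from -0.58 for Ugt1a6b to 1.60 for Ugt1a2, and 0 genes passed an adjusted p of 0.05.

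Elongating spermatid markers dominated in both diets, as 7 genes that summed to 13480.2 to 16443 CPM in ethanol libraries and 13418 to 15897 CPM in control libraries. Summed markers of several other cell types stood apart between the diets. For the counts of markers below, 7.45% of all genes tested were higher and 5.89% lower at an unadjusted p under 0.05. The 11 Sertoli cell markers summed to 914 to 1041 CPM in ethanol libraries and 789 to 838 CPM in control libraries, with 6 higher and 1 lower at an unadjusted p under 0.05. Clu held most of this sum, at 682 ± 51.8 CPM with ethanol and 586 ± 17.2 CPM in controls (SD, n = 3 each). Amh was the lower one, and Sox9, Gata1, Rhox5 and Fshr were at an unadjusted p over 0.05. The 7 spermatocyte markers summed to 1266 to 1337 CPM in ethanol libraries and 1461 to 1509 CPM in control libraries, with 4 lower, and the 6 round spermatid markers to 1016 to 1023 CPM and 1085 to 1178 CPM, with 3 lower. The 8 Leydig cell markers summed to 554 to 697 CPM with ethanol and 647 to 678 CPM in controls, with 1 higher and 3 lower. Of the lower ones, Cyp11a1 averaged 23.5 ± 8.94 CPM with ethanol and 58.1 ± 14.4 CPM in controls (edgeR unadjusted p = 0.000151, adjusted p = 0.127). Cyp17a1 averaged 86.8 ± 35.0 and 138 ± 11.8 CPM, and Hsd17b3 12.1 ± 0.375 and 15.2 ± 0.425 CPM. Hsd3b6, the 1 higher, averaged 65.5 ± 15.2 and 44.7 ± 3.27 CPM, and Insl3, the most abundant, 214 ± 24.2 and 220 ± 9.05 CPM (SD, n = 3 each). The 5 macrophage markers gave 89.6 to 96.7 CPM with ethanol and 75.6 to 81.8 CPM in controls. Of them 1 was higher, Mrc1, which held most of the sum at 68.3 ± 3.61 and 55.4 ± 1.16 CPM (SD, n = 3 each). The 4 erythroid markers gave 51.6 to 61.6 CPM with ethanol and 26.3 to 39.9 CPM in controls, with 4 higher. The 5 fat cell markers gave 16.0 to 33.9 CPM with ethanol and 10.8 to 18.4 CPM in controls, with 3 higher, and were highest in ethanol library 1. The 5 peritubular myoid markers gave 100.3 to 107.7 CPM with ethanol and 95.7 to 99.9 CPM in controls, with 0 at an unadjusted p under 0.05. The 7 spermatogonia markers gave 109 to 122 CPM and 108 to 120 CPM, with 1 lower. The 5 endothelium markers gave 18.3 to 23.8 CPM and 17.9 to 18.6 CPM, with 1 higher and 1 lower. The 8 epididymis markers stayed at 0.0915 to 0.529 CPM with ethanol and 0.282 to 0.383 CPM in controls, with Lcn5 and Defb2 at 0 in every library. The part of these cells in the results that follow was not tested. Without ethanol library 1, 9 members were higher and 5 lower at an unadjusted p under 0.05, where 12.6% of all genes tested stood.

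By transcript level the families were very unequal. The mean over all libraries was 3592 TPM for Gstm5, a mu-class glutathione transferase, which made up 65.0% of the summed TPM of the Gst genes and 62.5% of that of all 71 genes. Gstt4, of the theta class, followed at 655 TPM, Gsto2, of the omega class whose members also reduce dehydroascorbate, at 339.5 TPM, and Gstm1 and Gstm2, both of the mu class, at 283 and 243 TPM. These 5 genes held 89.0% of the summed TPM. In the other families the leading genes were Ephx1 at 65.3 TPM (90.1% of the Ephx sum), Mgst1 at 56.1 TPM (74.4% of the Mgst sum), Ugt1a6a at 20.1 TPM (47.8% of the Ugt sum) and Sult1e1 at 17.7 TPM (60.2% of the Sult sum).

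**Figure D2:**
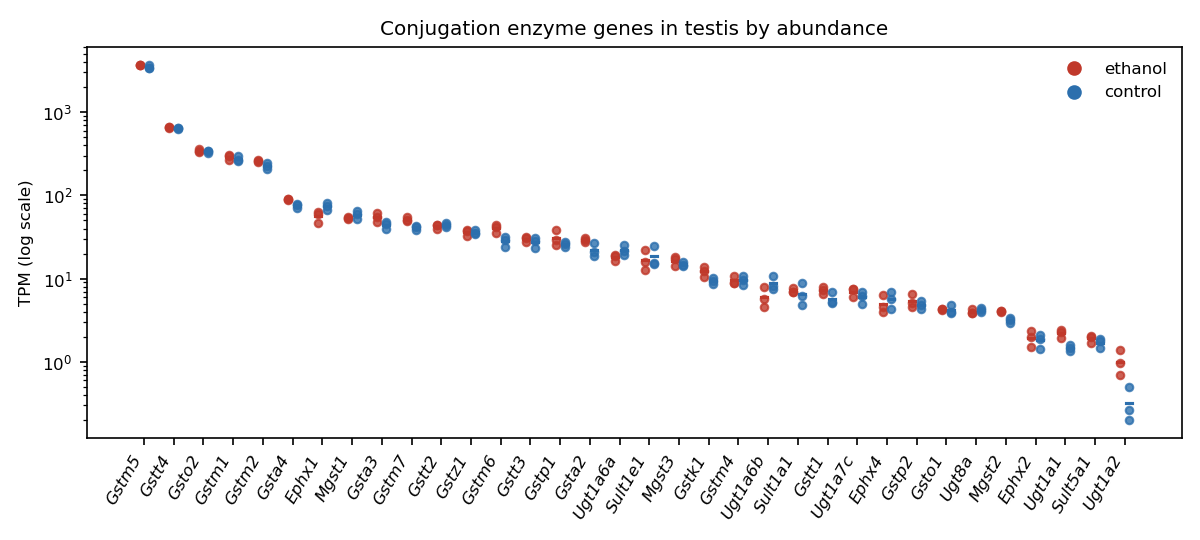
TPM (log axis) in each library, with ethanol on the left of each pair and a bar at the mean, of the 34 conjugation enzyme genes whose mean reached 1 CPM, ordered by mean TPM. Gstm5 averages 3689 TPM in ethanol and 3495 TPM in control libraries, above every other member.

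The epoxide hydrolases held the smallest p of the families. Ephx1 (Gene ID 13849, chr1:180989556-181017569, mm10) encodes the microsomal epoxide hydrolase, which opens epoxides of drugs and aromatic hydrocarbons. Its levels were 52.5, 53.3 and 43.4 CPM in ethanol libraries 1, 2 and 3, against 69.1, 71.4 and 64.8 CPM in control libraries 1, 2 and 3. Every ethanol library lay below every control library, and the gap was wider than the spread within either diet. The log2 fold change was -0.46 (SE 0.08, unadjusted p = 0.000164, edgeR adjusted p = 0.127), and it lay between -0.51 and -0.38 under every alternative run. Its adjusted p was 0.000724 in DESeq2 and reached 0.424 among the other alternatives.

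Ephx4, a related hydrolase of unsettled substrate, stood at 3.50, 4.21 and 3.85 CPM in ethanol libraries and 4.68, 5.23 and 4.40 CPM in control libraries. Its CPM did not overlap between the diets, but its TPM did, at 4.98 ± 1.30 with ethanol and 5.66 ± 1.26 in controls (SD, n = 3 each). Ephx4 had a log2 fold change of -0.31 (SE 0.14, unadjusted p = 0.0462, edgeR adjusted p = 0.364). Ephx2, the soluble hydrolase of epoxy fatty acids, averaged 2.09 ± 0.307 CPM with ethanol and 2.02 ± 0.323 CPM in controls (SD, n = 3 each). Ephx3 was at 0 in every library. The summed level of the family was 55.7 ± 5.75 CPM with ethanol and 75.2 ± 3.88 CPM in controls (SD, n = 3 each), a log2 ratio of -0.43 that came to -0.19 when Ephx1 was left out.

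The 21 tested cytosolic glutathione transferases included 7 higher and 0 lower in ethanol testes at an unadjusted p under 0.05, against 7.45% and 5.89% of all genes tested. In edgeR 0 passed an adjusted p of 0.05. All 7 were of the mu, alpha or kappa class, a grouping that rests on the p cut. The median log2 fold change was 0.03 over the 7 mu-class genes, 0.04 over the 4 of the theta class and 0.14 over the 2 tested of the pi class. It was -0.02 over the 2 of the omega class and 0.32 over the 3 alpha-class genes of chromosome 9. The summed level of the Gst genes was 2886 ± 123 CPM with ethanol and 2824 ± 142 CPM in controls (SD, n = 3 each), a log2 ratio of 0.03 that ran from -0.01 to 0.06 as each library was left out. That sum is mostly Gstm5, which stood at 1637, 1701 and 1816 CPM in ethanol libraries and 1782, 1550.2 and 1749.6 CPM in control libraries. The diets overlapped for Gstm5 on the CPM scale, where it had a log2 fold change of 0.02 and an SE of 0.07 (edgeR adjusted p = 0.924), whereas on the TPM scale they did not, at 3689 ± 23.2 with ethanol and 3495 ± 129 in controls (SD, n = 3 each). The TPM scale lay toward ethanol for all genes tested. Their median log2 fold change was 0.04 on log2 of TPM plus 1 and 0.06 on log2 of TPM plus 0.1, against 0.01 in edgeR.

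The 7 mu-class genes lie side by side on chromosome 3, between positions 107895854 and 108045179, and 3 of them stood at an unadjusted p under 0.05. Gstm6 (Gene ID 14867, chr3:107938847-107953641) had 24.5, 23.7 and 22.5 CPM in ethanol libraries, against 18.9, 16.8 and 15.7 CPM in control libraries. Gstm7 (Gene ID 68312, chr3:107926334-107931877), its neighbour, had 36.7, 35.1 and 36.6 CPM in ethanol libraries, against 30.6, 29.3 and 29.5 CPM in control libraries. Both were higher in every ethanol library than in any control library, and the libraries of a diet lay close together. The log2 fold change of Gstm6 was 0.46 (SE 0.09, unadjusted p = 0.000314, edgeR adjusted p = 0.145), and that of Gstm7 was 0.28 (SE 0.07, unadjusted p = 0.00173, edgeR adjusted p = 0.156). DESeq2 gave Gstm6 an adjusted p of 0.00481, which among the other alternatives reached 0.424.

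Gstm2 stood at 134, 137 and 139 CPM in ethanol libraries and 126, 127 and 119 CPM in control libraries, without overlap. Its log2 fold change was 0.14 (SE 0.06, unadjusted p = 0.0326, edgeR adjusted p = 0.327). The other mu-class levels were close between the diets. Gstm1 averaged 193 ± 2.90 CPM with ethanol and 189 ± 8.52 CPM in controls, and Gstm4 averaged 6.99 ± 0.631 CPM and 7.49 ± 1.23 CPM (SD, n = 3 each). Near-identical sequence limits some of these values. In the longest transcript of each gene, 23.5% of Gstm6, 22.7% of Gstm2, 43.7% of Gstm3 and 45.1% of Gstm1 lay in stretches of 50 bases shared exactly with another gene, against 0% of Gstm5 and Gstm7.

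**Figure D3:**
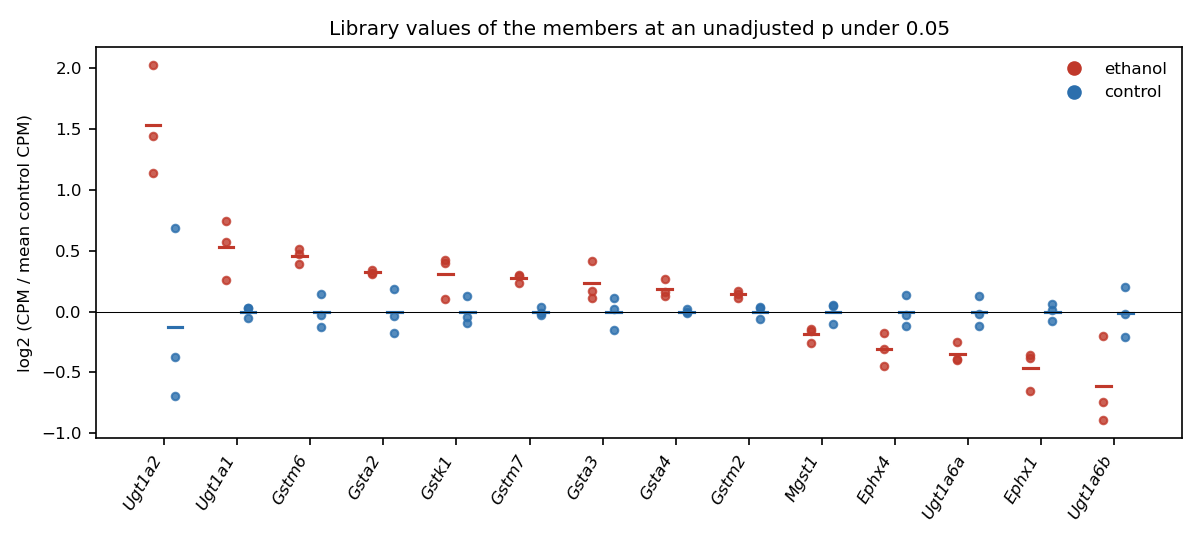
Log2 of the CPM of each library over the mean CPM of the control libraries, for the 14 conjugation enzyme genes at an unadjusted p under 0.05, with ethanol libraries on the left of each pair and a bar at the mean of the log2 values. Ugt1a6b, Gsta3 and Gstk1 overlap between the diets, and the other 11 do not.

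The alpha-class genes are known for conjugating lipid aldehydes and, in some members, for isomerising steroids. Gsta4 (chr9:78191966-78209349), whose enzyme prefers the aldehyde hydroxynonenal, stood at 42.0, 42.8 and 46.3 CPM in ethanol libraries and 39.0, 38.2 and 38.0 CPM in control libraries, without overlap. For Gsta4 it came to a log2 fold change of 0.19 (SE 0.07, unadjusted p = 0.0187, edgeR adjusted p = 0.273). Gsta2 (chr9:78331018-78347192) stood at 13.7, 13.6 and 13.9 CPM in ethanol libraries and 10.7, 12.5 and 9.71 CPM in control libraries, also without overlap. Its log2 fold change was 0.32 (SE 0.11, unadjusted p = 0.0121, edgeR adjusted p = 0.240). Gsta3 (chr1:21240565-21265575) had 36.5, 43.4 and 35.1 CPM in ethanol libraries and 29.3, 32.9 and 35.1 CPM in control libraries, with ethanol library 3 level with control library 3. Its log2 fold change was 0.24 (SE 0.10, unadjusted p = 0.0291, edgeR adjusted p = 0.314). Of the longest transcript, 82.0% of Gsta2 and 95.3% of Gsta1 was shared with other genes in exact stretches of 50 bases, so counts of these copies are uncertain, while Gsta3 and Gsta4 shared 0%.

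Gstk1, the kappa-class enzyme of mitochondria and peroxisomes, stood at 6.27, 5.03 and 6.16 CPM in ethanol libraries and 5.11, 4.40 and 4.54 CPM in control libraries. Ethanol library 2 lay just below control library 1, while on the TPM scale the diets did not overlap. Gstk1 had a log2 fold change of 0.31 (SE 0.14, unadjusted p = 0.0407, edgeR adjusted p = 0.350).

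The theta, omega, zeta and pi classes had 0 members at an unadjusted p under 0.05 in edgeR, and 0 past an adjusted p of 0.05. The log2 fold changes of Gstt1 (0.25, SE 0.16) and Gstp1 (0.19, SE 0.12) were nonetheless above that of Gstm2, with larger SE. Gstt4, the most abundant after Gstm5, stood at 306, 329.8 and 351 CPM in ethanol libraries and 328, 314 and 353 CPM in control libraries, and its log2 fold change was -0.01 with an SE of 0.07 (edgeR adjusted p = 0.966). Its sign turned under 7 of the alternatives, so it has no direction. Mean levels with ethanol and in controls were 30.7 ± 2.79 and 33.8 ± 1.36 CPM for Gstt2, 28.9 ± 0.986 and 27.1 ± 2.40 CPM for Gstt3, and 3.88 ± 0.173 and 3.27 ± 0.594 CPM for Gstt1 (SD, n = 3 each). Gsto2 averaged 227 ± 13.8 CPM with ethanol and 229 ± 11.0 CPM in controls, and Gsto1 2.60 ± 0.193 and 2.66 ± 0.412 CPM. Gstz1, the isomerase that also serves tyrosine breakdown, averaged 33.4 ± 1.76 CPM with ethanol and 35.2 ± 0.289 CPM in controls. Gstp1 averaged 11.7 ± 1.88 CPM with ethanol and 10.2 ± 0.268 CPM in controls, and Gstp2 2.07 ± 0.261 and 1.94 ± 0.112 CPM. Gstp1 and Gstp2 share most of their sequence, 70.5% and 80.4% of the longest transcripts.

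Of the membrane-bound glutathione transferases, Mgst1, which lies in the endoplasmic reticulum and the outer mitochondrial membrane, had 25.1, 27.1 and 26.9 CPM in ethanol libraries and 31.1, 31.0 and 27.9 CPM in control libraries. All ethanol libraries were lower, with control library 3 nearest to them, and on the TPM scale the diets overlapped. Mgst1 had a log2 fold change of -0.19 (SE 0.08, unadjusted p = 0.0340, edgeR adjusted p = 0.331). Mgst2, which can make leukotriene C4, averaged 2.53 ± 0.218 CPM with ethanol and 2.11 ± 0.124 CPM in controls (SD, n = 3 each), without overlap. Mgst3 stood at 9.57, 7.98 and 10.2 CPM in ethanol libraries and 9.32, 7.93 and 8.82 CPM in control libraries, and its log2 fold change was 0.09 with an SE of 0.12 (edgeR adjusted p = 0.805). The family summed to 38.2 ± 1.48 CPM with ethanol and 40.8 ± 1.75 CPM in controls (SD, n = 3 each), a log2 ratio of -0.10, and of 0.13 when Mgst1 was left out.

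Among the Ugt genes, the Ugt1a locus on chromosome 1 (88055411 to 88220002, plus strand) held values on both sides. Its 8 listed genes are known for alternative first exons, which encode the part that binds the acceptor molecule and are spliced to the same last exons. The annotation does not keep them fully apart, since 1 GENCODE M21 transcript of Ugt1a7c holds all 2297 bases of the longest Ugt1a6a transcript, its acceptor exon included. Exons 2, 3 and 4, of 132, 88 and 220 bases, lie at the same positions in every Ugt1a gene of GENCODE M21 (chr1:88215044-88215175, chr1:88215795-88215882 and chr1:88216138-88216357). A read in these exons names no single gene, and the sources used here do not say how such reads were assigned. Ugt1a1 conjugates bilirubin, and the Ugt1a6 enzymes conjugate small planar phenols.

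Ugt1a6a (Gene ID 94284) stood at 29.5, 32.4 and 29.4 CPM in ethanol libraries and 38.2, 42.2 and 35.6 CPM in control libraries, each ethanol library below each control library. Its log2 fold change was -0.35 (SE 0.08, unadjusted p = 0.00137, edgeR adjusted p = 0.153), and its adjusted p ran from 0.0256 in DESeq2 to 0.458 over the alternatives. Its copy Ugt1a6b (Gene ID 394435) stood at 6.35, 9.26 and 5.73 CPM in ethanol libraries and 9.21, 12.2 and 10.5 CPM in control libraries. Ethanol library 2 lay just above control library 1, so the diets overlapped. Ugt1a6b had a log2 fold change of -0.58 (SE 0.17, unadjusted p = 0.00636, edgeR adjusted p = 0.203), and its adjusted p ran from 0.0440 in DESeq2 to 0.436 over the alternatives. Of the 954 bases of the first exon of Ugt1a6a, 674 (70.6%) lay in exact stretches of 50 bases shared with that of Ugt1a6b, so the pair is also given as a sum. Over whole transcripts, all of Ugt1a6a, 91.7% of Ugt1a6b and 69.8% of Ugt1a7c was shared in this way with other genes.

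The genes whose first exons lie nearest the shared exons stood on the other side. Ugt1a2 (Gene ID 22236) had 1.51, 2.26 and 1.22 CPM in ethanol libraries, against 0.342, 0.428 and 0.894 CPM in control libraries. No library overlapped, although the spread was wide at this level and control library 3 lay closest to the ethanol libraries. The log2 fold change of 1.60 (SE 0.36, unadjusted p = 0.000841, edgeR adjusted p = 0.153) was the largest among the 14, and it ran from 1.30 to 2.10 as each library was left out. Ugt1a1 (Gene ID 394436) had 3.02, 3.75 and 4.22 CPM in ethanol libraries and 2.56, 2.57 and 2.42 CPM in control libraries, without overlap. Its log2 fold change was 0.54 (SE 0.16, unadjusted p = 0.00606, edgeR adjusted p = 0.200). The first exon of Ugt1a1 shared 0 stretches of 50 bases with the others, and that of Ugt1a2 shared 12.9% with Ugt1a5. Ugt1a7c averaged 11.7 ± 1.04 CPM with ethanol and 10.5 ± 2.01 CPM in controls (SD, n = 3 each).

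Ugt1a8, which GENCODE M21 also places in the locus, is not among the members and was left out of the shares that follow. Of the counts of the 8 listed Ugt1a genes, Ugt1a6a and Ugt1a6b together took 66.8%, 67.8% and 66.9% in ethanol libraries. In control libraries the pair took 79.5%, 79.1% and 73.4%. The ethanol libraries agreed closely, and all lay below the lowest control library. The means were 67.1 ± 0.550% with ethanol and 77.3 ± 3.39% in controls (SD, n = 3 each), a difference of -10.19 percentage points that ran from -12.2 to -9.13 as each library was left out. On the TPM scale the shares were 68.7 ± 0.768% with ethanol and 78.8 ± 3.16% in controls. The pair summed to 37.6 ± 3.62 CPM with ethanol and 49.3 ± 4.47 CPM in controls, and the other Ugt1a genes to 18.4 ± 1.30 CPM and 14.4 ± 2.22 CPM (SD, n = 3 each). The largest of the others, Ugt1a7c, took 22.1%, 20.7% and 20.3% of the counts in ethanol libraries and 14.6%, 14.6% and 20.1% in control libraries, and the split between it and Ugt1a6a rests on how reads common to both were assigned. Ugt1a6a, Ugt1a6b and Ugt1a7c summed together took 88.9%, 88.4% and 87.1% in ethanol libraries, against 94.0%, 93.7% and 93.6% in control libraries. The diets did not overlap for this sum either, at a difference of -5.62 percentage points. These shares were computed after values of these genes were known, and they were given no test.

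**Figure D4:**
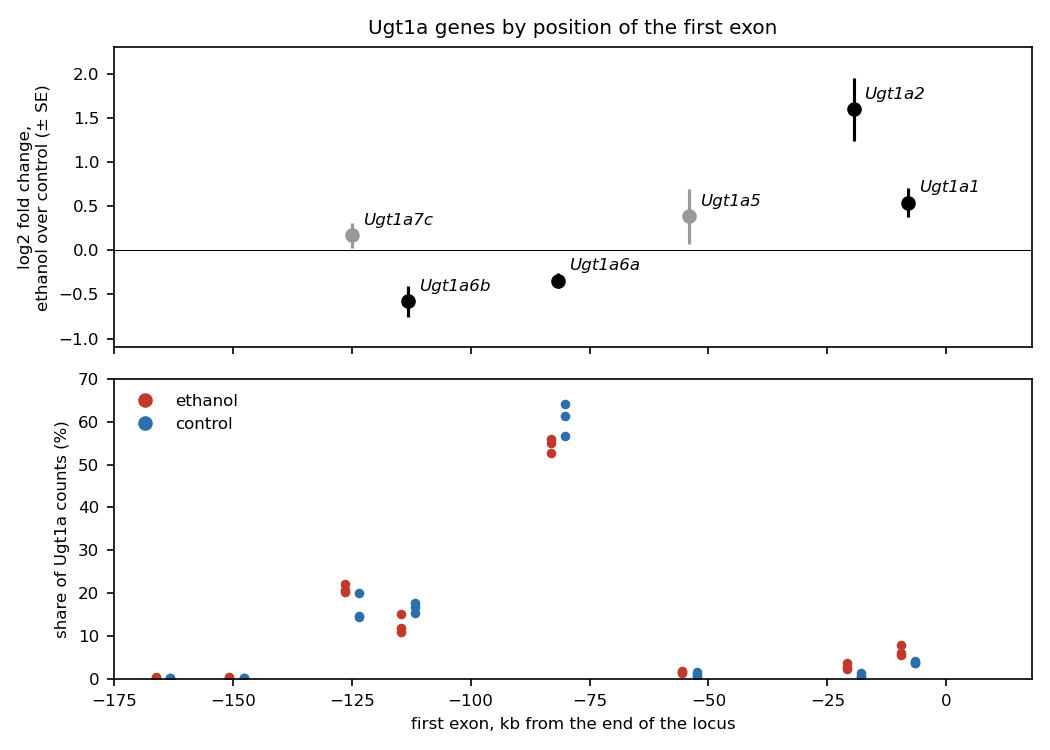
Ugt1a genes placed by the distance of the first exon of the first GENCODE transcript from the end of the locus in kilobases, with the log2 fold change, ethanol over control, and its standard error above (black, unadjusted p under 0.05, grey, other tested genes) and the percent of the summed counts of the 8 listed Ugt1a genes in each library below, ethanol on the left of each pair. Ugt1a6b and Ugt1a6a, with first exons 113.1 and 81.6 kb from the end, stand below 0, and Ugt1a2 and Ugt1a1, 19.4 and 8.0 kb from it, above 0, as do Ugt1a7c at 124.9 kb and Ugt1a5 at 54.0 kb.

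The bases before the RefSeq starts of 3 of these genes, on GRCm38.p6 (mm10), are shown to set starts of one locus beside each other. That of Ugt1a6a opens a short leading exon and lies upstream of the 954-base exon compared above (chr1:88138378-88139331), where GENCODE places a second start, whose upstream bases are not shown. Each holds the 250 bases up to the start, 5′ to 3′ on the gene's own strand. Capitals mark 2 motifs searched on both strands, the core of the antioxidant response element (TGACNNNGC), to which Nrf2 binds, and that of the xenobiotic response element (GCGTG), to which the aryl hydrocarbon receptor binds. Neither occurs in these 3 windows, which says nothing of either factor elsewhere.
Ugt1a6a promoter, chr1:88134559-88134808, plus strand: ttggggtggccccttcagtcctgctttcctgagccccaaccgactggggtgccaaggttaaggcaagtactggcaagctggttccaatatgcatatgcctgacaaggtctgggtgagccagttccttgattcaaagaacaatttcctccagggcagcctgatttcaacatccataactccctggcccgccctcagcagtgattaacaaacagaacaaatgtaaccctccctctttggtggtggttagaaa
Ugt1a2 promoter, chr1:88200361-88200610, plus strand: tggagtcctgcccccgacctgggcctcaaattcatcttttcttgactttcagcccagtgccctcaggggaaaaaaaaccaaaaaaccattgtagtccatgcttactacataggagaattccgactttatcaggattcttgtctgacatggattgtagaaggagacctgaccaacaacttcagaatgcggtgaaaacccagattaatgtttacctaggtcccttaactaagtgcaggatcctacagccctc
Ugt1a1 promoter, chr1:88211709-88211958, plus strand: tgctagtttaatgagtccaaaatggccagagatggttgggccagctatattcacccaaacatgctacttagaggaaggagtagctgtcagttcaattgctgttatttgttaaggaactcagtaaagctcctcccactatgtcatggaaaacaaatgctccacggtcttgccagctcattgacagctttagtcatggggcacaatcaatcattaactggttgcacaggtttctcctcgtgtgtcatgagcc

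Ephx1 is shown as the member of smallest p, Gsta2 for its xenobiotic element core, Gsta3 and Gstm7 as tested members with an antioxidant element core, and Gstm5 as the most abundant gene. In Gstm5 one of its 2 such cores, CACGC on the printed strand, falls within the antioxidant element core. The Ephx1 window held neither motif. For Gstm7 the window of the second of 2 listed starts is given. The window of the first, chr3:107931818-107932067, held neither motif. On this minus strand the second start lies downstream of the first, and the marked core lies between them. The Gstm7 core is therefore upstream of the second start only.
Ephx1 promoter, chr1:181017570-181017819, minus strand: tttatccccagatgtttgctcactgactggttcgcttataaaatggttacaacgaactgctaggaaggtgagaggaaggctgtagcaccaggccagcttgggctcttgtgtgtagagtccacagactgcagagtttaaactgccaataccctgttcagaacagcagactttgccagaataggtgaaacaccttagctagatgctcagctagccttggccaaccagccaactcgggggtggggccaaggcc
Gsta2 promoter, chr9:78347146-78347395, minus strand: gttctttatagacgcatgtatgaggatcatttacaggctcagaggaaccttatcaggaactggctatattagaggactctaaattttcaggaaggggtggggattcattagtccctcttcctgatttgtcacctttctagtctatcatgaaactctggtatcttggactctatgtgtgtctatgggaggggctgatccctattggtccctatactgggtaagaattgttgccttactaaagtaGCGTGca
Gsta3 promoter, chr1:21240335-21240584, plus strand: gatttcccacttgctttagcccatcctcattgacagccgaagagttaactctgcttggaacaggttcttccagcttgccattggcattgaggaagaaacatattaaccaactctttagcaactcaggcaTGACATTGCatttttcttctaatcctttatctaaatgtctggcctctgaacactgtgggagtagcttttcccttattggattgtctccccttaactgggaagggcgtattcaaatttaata
Gstm7 promoter, chr3:107931615-107931864, minus strand: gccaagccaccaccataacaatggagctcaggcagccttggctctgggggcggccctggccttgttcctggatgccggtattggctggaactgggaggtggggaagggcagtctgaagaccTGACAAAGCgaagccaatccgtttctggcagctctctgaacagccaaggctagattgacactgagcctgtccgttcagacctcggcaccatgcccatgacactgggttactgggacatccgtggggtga
Gstm5 promoter, chr3:107895604-107895853, plus strand: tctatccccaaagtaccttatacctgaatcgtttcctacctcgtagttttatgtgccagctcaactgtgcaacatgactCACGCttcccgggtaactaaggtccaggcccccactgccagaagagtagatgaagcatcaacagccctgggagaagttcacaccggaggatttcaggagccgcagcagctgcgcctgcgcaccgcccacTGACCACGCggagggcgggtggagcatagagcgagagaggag

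Promoter windows of 300 bases, 250 before to 50 after the start, were found for 62 of the 71 genes. The antioxidant element core occurred in 4 of 75 member promoters (5.33%), against 12.4% of 32851 promoters of all genes, and the 4 belong to Gsta3, Gstm5, Gstm7 and Mgst1. The xenobiotic element core occurred in 15 of 75 (20.0%), against 32.4%. Among the 44 promoters of tested members alone, the shares were 4 (9.09%) for the antioxidant and 10 (22.7%) for the xenobiotic element core. Of tested members not shown above, Mgst1 had the antioxidant element core. Ephx4, Gsta1, Gstm1, Gstp1, Mgst3, Ugt1a5 and Ugt8a had the xenobiotic one. Mgst1 and Ephx4 were lower in ethanol testes at an unadjusted p under 0.05 in edgeR, and a link of core to direction was not tested. A match is a stretch of letters and not a measured site.

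The remaining Ugt genes were low. Ugt8a, which makes the galactosylceramide from which the seminolipid of germ cells derives, averaged 7.87 ± 1.09 CPM with ethanol and 8.50 ± 0.393 CPM in controls (SD, n = 3 each). The Ugt2 genes on chromosome 5, 10 members known mostly from the liver and nasal tissue, had 0 tested. The family summed to 64.5 ± 4.82 CPM with ethanol and 73.5 ± 4.62 CPM in controls (SD, n = 3 each), a log2 ratio of -0.19, and of -0.03 when Ugt1a6a was left out.

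The sulfotransferases had the lowest summed level of the families, 29.5 TPM, with 6 of 21 members tested, 0 at an unadjusted p under 0.05 and 0 past an adjusted p of 0.05 in edgeR. Sult1e1, the estrogen sulfotransferase, known from mouse Leydig cells, stood at 13.6, 10.2 and 8.67 CPM in ethanol libraries and 10.6, 15.5 and 10.7 CPM in control libraries. Ethanol libraries 2 and 3 lay below all control libraries, but ethanol library 1 lay above control libraries 1 and 3, so the diets overlapped, and the log2 fold change was -0.18 (SE 0.18, edgeR adjusted p = 0.718). Sult1a1, a phenol sulfotransferase, stood at 5.74, 6.47 and 5.82 CPM in ethanol libraries and 7.61, 4.67 and 4.75 CPM in control libraries. Control library 1 alone lay above the ethanol libraries, and the log2 fold change was 0.08 (SE 0.18, edgeR adjusted p = 0.887). Each of these 2 values changed sign when a control library was left out. Sult5a1 averaged 1.26 ± 0.0898 CPM with ethanol and 1.14 ± 0.123 CPM in controls (SD, n = 3 each). The family summed to 20.5 ± 2.27 CPM with ethanol and 21.4 ± 2.51 CPM in controls, a log2 ratio of -0.06.

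The tested members with a mean under 1 CPM were Gsta1, Gstm3, Sult2a7, Sult4a1, Sult6b1, Ugt1a5 and Ugt3a2, all at an unadjusted p over 0.05. Of these 7, Gsta1 alone did not overlap between the diets, at 0.806, 0.960 and 0.804 CPM with ethanol and 0.406, 0.676 and 0.635 CPM in controls. Another 22 members had too few counts to test, at most 43 counts over the 6 libraries together. They were Gstp3, Sult1c1, Sult1d1, Sult2a1 to Sult2a5, Sult2a8, Sult2b1, Sult3a2, Sult6b2, Ugt1a9, Ugt1a10, Ugt2a3, Ugt2b5, Ugt2b34 to Ugt2b38 and Ugt3a1. The last 8, Ephx3, Sult1b1, Sult1c2, Sult2a6, Sult3a1, Ugt2a1, Ugt2a2 and Ugt2b1, had 0 counts in every library, which allows up to 3 counts, or 0.0641 to 0.0756 CPM, in a library, for counting error only.

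The genes that supply, export and regulate conjugation were read from 7 lists of 86 genes, of which 74 were tested and 15 (20.3%) stood at an unadjusted p under 0.05, against the background of 13.3%, with 12 higher and 3 lower and 0 past an adjusted p of 0.05 in edgeR. Without ethanol library 1 the numbers were 7 higher and 5 lower, where 12.6% of all genes tested stood at that level in either direction. Without ethanol library 3 or control library 3 the lower ones were 6 and 5, where 13.1% and 9.89% of all genes stood. The 22 tested genes of glutathione synthesis and use included 1 higher and 1 lower. The rate-limiting pair Gclc and Gclm averaged 33.1 ± 3.27 and 15.4 ± 1.30 CPM with ethanol and 34.0 ± 0.512 and 14.1 ± 0.390 CPM in controls (SD, n = 3 each). Glutathione synthetase Gss averaged 4.96 ± 0.370 CPM with ethanol and 5.56 ± 0.439 CPM in controls, and the reductase Gsr 24.1 ± 0.950 and 22.4 ± 1.69 CPM. Glo1, which clears methylglyoxal with glutathione, averaged 20.0 ± 1.37 CPM with ethanol and 17.3 ± 0.873 CPM in controls, and Ggt7, of the gamma-glutamyltransferase family, 18.3 ± 0.765 and 22.0 ± 1.44 CPM.

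Log2 fold changes were above 0 for 8 of 11 tested export genes and 10 of 11 tested cofactor genes, against 51.5% of all genes tested. In the other lists they were above 0 for 11 of 22 glutathione genes and 4 of 5 genes that reverse conjugation. The same held for 6 of 11 receptors and regulators, 5 of 9 conjugation enzymes of other families and 3 of 5 oxidising enzymes. Of the 11 export genes, 4 were higher and 0 lower at an unadjusted p under 0.05, against 7.45% and 5.89% of all genes tested. Abcc1, which carries glutathione conjugates out of cells, had 86.0, 79.7 and 81.7 CPM in ethanol libraries and 66.6, 72.6 and 68.8 CPM in control libraries, without overlap. Its log2 fold change was 0.25 (SE 0.06, unadjusted p = 0.00223, edgeR adjusted p = 0.162). Abcb1b, a multidrug exporter, averaged 1.81 ± 0.194 CPM with ethanol and 0.987 ± 0.0712 CPM in controls, without overlap, at a log2 fold change of 0.88 (SE 0.20, unadjusted p = 0.000943, edgeR adjusted p = 0.153). Abcc6 averaged 1.47 ± 0.127 CPM with ethanol and 0.882 ± 0.0140 CPM in controls, and Abcc2, an exporter of conjugates known from liver, 0.934 ± 0.0857 and 0.602 ± 0.152 CPM (SD, n = 3 each), neither with overlap.

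Of the 11 cofactor genes, 2 were higher and 0 lower at an unadjusted p under 0.05, against 7.45% and 5.89% of all genes tested. Papss2, which makes PAPS, averaged 5.15 ± 0.868 CPM with ethanol and 3.82 ± 0.537 CPM in controls, and Papss1, its counterpart, 9.71 ± 0.609 and 8.74 ± 0.398 CPM, both without overlap (SD, n = 3 each). Ugp2, which makes UDP-glucose, averaged 38.5 ± 3.03 CPM with ethanol and 33.5 ± 1.57 CPM in controls, and Ugdh, which oxidises it to the glucuronic acid donor, 3.36 ± 0.415 and 2.94 ± 0.388 CPM. Papss1 and Ugdh were at an unadjusted p over 0.05. The 5 tested genes that reverse conjugation had 0 at that level in edgeR. Of 9 conjugation enzymes of other families, the thiopurine methyltransferase Tpmt averaged 7.69 ± 0.416 CPM with ethanol and 5.84 ± 1.16 CPM in controls, and the nicotinamide methyltransferase Nnmt 3.79 ± 0.286 and 4.99 ± 0.408 CPM, without overlap.

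Of 11 tested receptors and regulators, 3 were higher and 1 lower at an unadjusted p under 0.05, against 7.45% and 5.89% of all genes tested. Nfe2l2, which encodes Nrf2, had 20.5, 19.0 and 17.7 CPM in ethanol libraries and 14.3, 15.1 and 16.5 CPM in control libraries. Keap1, whose product keeps Nrf2 low, had 47.7, 48.4 and 54.5 CPM in ethanol libraries and 57.0, 56.6 and 61.6 CPM in control libraries. Neither gene overlapped between the diets. The log2 fold changes were 0.32 (SE 0.09, unadjusted p = 0.00588, edgeR adjusted p = 0.199) for Nfe2l2 and -0.22 (SE 0.07, unadjusted p = 0.0125, edgeR adjusted p = 0.242) for Keap1. Mafg, a partner of Nrf2 on DNA, averaged 11.0 ± 1.26 CPM with ethanol and 8.31 ± 1.56 CPM in controls, without overlap. Ahr, the aryl hydrocarbon receptor, averaged 1.73 ± 0.195 and 1.25 ± 0.243 CPM, and Cyp1b1, the 1 of 5 tested oxidising enzymes at that level, 20.6 ± 1.83 and 17.8 ± 0.971 CPM (SD, n = 3 each), both with overlap. Mafk, also among the receptors and regulators, was lower without overlap, at a log2 fold change of -0.18 (SE 0.099). Maff, of the same list, had 0.26 (SE 0.24), and the oxidising enzyme Nqo1 had -0.14 (SE 0.18), each with overlap. Mafk, Maff and Nqo1 were at an unadjusted p over 0.05 in edgeR.

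**Figure D5:**
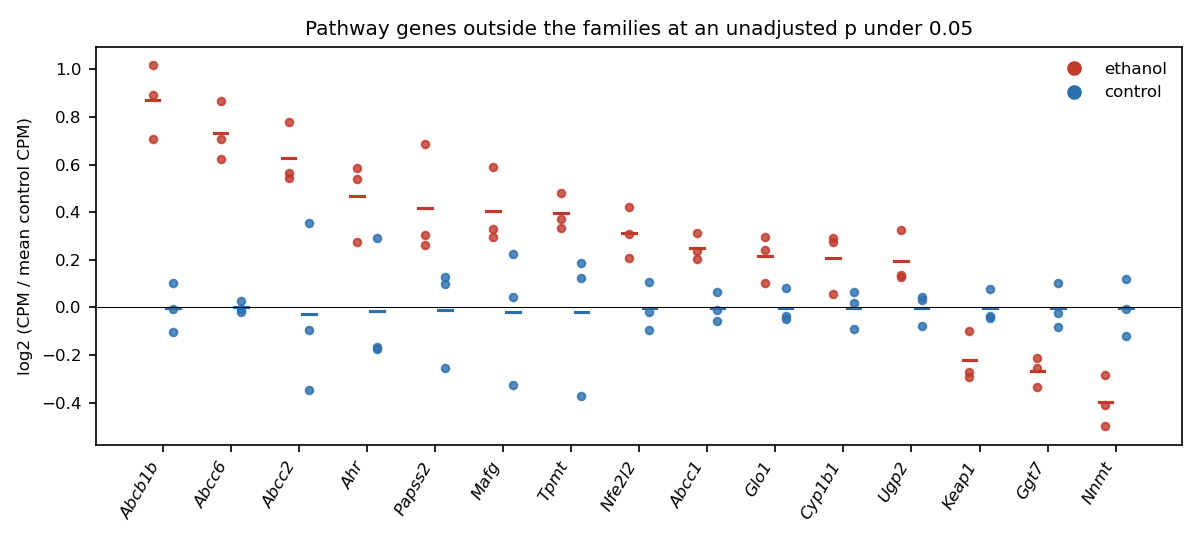
Log2 of the CPM of each library over the mean CPM of the control libraries, for the 15 genes of supply, export and regulation at an unadjusted p under 0.05, with ethanol libraries on the left of each pair and a bar at the mean of the log2 values. The 12 on the left are higher in ethanol libraries, led by Abcb1b at a log2 fold change of 0.88 in edgeR (0.20 to 0.80 on log2 of FPKM or TPM plus 1 or 0.1), and Keap1, Ggt7 and Nnmt on the right are lower.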

How the data were processed

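Total RNA of testis was sequenced in 6 libraries, 3 per diet, with a stranded kit after ribosomal RNA removal, per the labels' protocols. The submitters' processing notes name HISAT2 as aligner and mm10 as genome. The sources used here give neither the version of HISAT2, nor the counting tool, its use of strand or its gene annotation, so values of overlapping, antisense or near-identical genes are uncertain. The deposited table, per the file headers, holds raw read counts per gene, with FPKM and TPM values computed by the authors beside them. It lists 45777 genes; 0 lines lacked a gene name, and 0 sample columns lay outside these libraries. Groups came from the labels. The lowest chi-square per gene between any 2 libraries was above sampling noise, so each was counted once.

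The members, gene lists and alternatives were chosen with earlier results of these data known. Counts were tested with edgeR 4.0.16 in R 4.3.3: filterByExpr, TMM scaling and quasi-likelihood F-tests of diet alone, adjusted by Benjamini-Hochberg over all 25073 genes tested. CPM are TMM-scaled; SE were derived from each log2 fold change and its F value. The common dispersion was 0.0104, a coefficient of variation of 0.102, and the median SE was 0.08 over the 25 members with at least 5 CPM. A procedure test on simulated data, drawn from these libraries with 200 genes changed, was run. Members were named with values in every library at an unadjusted p under 0.05 or as the 2 of highest mean TPM in a family, and with levels at a mean of at least 1 CPM; pathway genes at an unadjusted p under 0.05, or from a fixed list of enzymes and regulators. Other genes named were chosen after their values were seen. Bpnt2 and Sts were not analysed here. Alternatives were RLE, upper-quartile and total-count scaling, unfiltered counts, a minimum of 1 CPM in 3 libraries, limma 3.58.1 (voom on counts, trend on log2 of FPKM or TPM plus 1 or 0.1), DESeq2 1.42.0, a replicate block, an adjusted p of 0.1 and each library left out. Shared sequence was read from GENCODE M21 transcripts, as an addition after the data were seen, and promoters from RefSeq on GRCm38.p6.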

Additional observations from a re-analysis of the deposited data

How the results depend on the processing

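The 14 members at an unadjusted p under 0.05 kept the sign of their log2 fold change under every alternative run. They were picked by that p in these same libraries, so a change of sign was unlikely from the outset and this is no independent check. The count of genes past an adjusted p of 0.05, 0 in edgeR, was 2 higher with upper-quartile scaling and 2 higher with the filter of 1 CPM in 3 libraries, 203 higher and 127 lower with DESeq2, 3 and 2 with limma-voom, 4 and 1 at a threshold of 0.1, and 0 to 1 higher and 0 to 2 lower as each library was left out. DESeq2 called 1 member higher and 3 lower. Members lower at an unadjusted p under 0.05 numbered 3 with total counts alone and on log2(TPM + 1) and log2(TPM + 0.1), and 3 to 5 with a library left out, when 6 to 10 were higher. Of all genes tested, 13.2%, 10.3% and 10.2% stood at that level under the first 3 settings, in either direction. With a library left out the share was 9.27% to 14.3%. Members lower without overlap numbered 2 on FPKM and 2 on TPM, and 4 to 7 with a library left out, when 10 to 13 were higher. Leaving a library out makes non-overlap easier for any gene, and the shares over all genes were not computed for these settings. Genes of supply, export and regulation that were lower numbered 1 on log2(TPM + 1) and 1 on log2(TPM + 0.1), and 2 to 6 with a library left out, when 7 to 13 were higher. The cause of these differences was not tested. Without its most abundant member the log2 ratio of a family was -0.19 for Ephx, 0.13 for Mgst and -0.0322 for Ugt.

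Signs reversed for genes near 0 or with wide spread. Gstt4 came to 0.0143 with total counts alone, 0.0122 on log2(FPKM + 1) and log2(FPKM + 0.1), and 0.0442 on log2(TPM + 1) and log2(TPM + 0.1), and ran from -0.0682 to 0.0385 with a library left out. The ranges with a library left out were -0.0401 to 0.054 for Gstm5, -0.379 to 0.0248 for Sult1e1 and -0.0427 to 0.346 for Sult1a1. Ugt1a2 came to 0.34 on log2(FPKM + 1), where the added 1 understates changes of low genes. Likewise, on log2(FPKM + 1) and log2(TPM + 1), Abcb1b came to 0.20 and 0.35, Abcc2 to 0.07 and 0.15, Abcc6 to 0.09 and 0.17, and Ahr to 0.10 and 0.18. With 0.1 added, Abcb1b came to 0.66 on FPKM, and Abcc6 to 0.40 on FPKM and 0.53 on TPM. The difference in the Ugt1a share came to -5.62 percentage points with Ugt1a7c added, an alternative chosen after the data were seen. The median log2 fold change of all genes lay within 0.06 of 0 under every scaling.

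With the replicate number as a block, 5 genes were higher and 10 lower past an adjusted p of 0.05, 0 of them members. Deviations of libraries with the same number correlated at -0.12, 0.00 and 0.31, and those with different numbers at -0.36 to 0.35. With 3 libraries per diet, these values cannot settle whether the numbers pair the libraries. At 3 libraries per diet and a median SE of 0.08, small differences were not detectable, and values below 1 CPM rest on few counts.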
